A study of Homo sapiens with 8 samples.

Results

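Acute-phase proteins are plasma proteins of the liver whose secretion changes during inflammation. In hepatocytes their genes respond mainly to interleukin-6, acting through gp130, JAK kinases and STAT3, and to interleukin-1, acting through NF-kB and C/EBP factors, on top of liver factors such as HNF4A that keep them on. Positive acute-phase proteins, such as C-reactive protein and the serum amyloids A, increase in plasma, while negative ones, such as albumin and transthyretin, decrease.

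The 10 genes described here are serum amyloid A genes (SAA1, SAA2 and SAA4), the pentraxin CRP, the orosomucoids ORM1 and ORM2, the haemoglobin binder HP, the haem binder HPX, the lipopolysaccharide binder LBP and the fibrinogen-like secreted protein FGL1. They were taken by gene name from 2 expression tables that together hold 16169 genes. This list was drawn up with the fold changes of the same libraries known, SAA4 and HPX first among them, and its members were thus chosen by measured fold changes of these comparisons, so their values are a description and carry no test. Of the 10, 7 were listed in both tables. SAA1, SAA2 and LBP were in neither table and are not analysed here. No transcript in either table summed to less than 10 counts over its 4 libraries.

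RNA-seq was performed on Hep3B, a human hepatocellular carcinoma line, in 8 libraries from stranded mRNA kits. There were 2 libraries each of untreated wild-type Hep3B and of Hep3B labelled SOX4 knockout (SOX4-/-, made by CRISPR/Cas9 according to the methods of the study) in the first table, and 2 libraries each of wild-type Hep3B transfected with control (scramble) siRNA and with STAT6 siRNA in the second. The methods of the study name a pair of knockout lines for these data, and the labels do not tie the number of a knockout library to a line, so the spread of the knockout pair can include that between lines. Nothing in the labels states separate cultures for the other conditions, so the spread between their libraries may be technical.

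The libraries held 18484804 and 18123854 expected counts (Hep3B), 25353113 and 18924814 (labelled SOX4 knockout), 18096907 and 20272261 (scramble), and 16266282 and 22037721 (STAT6 siRNA). Levels are given as CPM (expected counts scaled to a common library size) on one TMM scaling of all 8 libraries, and library 1 is named before library 2 throughout. A single count was worth 0.0331 to 0.0853 CPM, depending on the library.

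All 6 hepatocyte markers were present, with ALB the highest in every library but STAT6 siRNA library 1, where SERPINA1 was higher, and their summed level was 11461 and 10186 CPM in Hep3B, 38402 and 23615 in the knockout-labelled libraries, 13030 and 15346 after scramble siRNA and 15021 and 19324 after STAT6 siRNA. SOX4 RNA itself was at 728 and 249 CPM in Hep3B and at 261 and 271 CPM in the knockout-labelled libraries. Knockout library values lay within the range of the Hep3B pair, so the SOX4 transcript gave no check of the knockout label. STAT6 RNA was at 29.1 and 12.4 CPM in Hep3B and at 2.42 and 1.98 CPM in the knockout-labelled libraries. After siRNA, STAT6 was at 46.2 and 33.9 CPM with scramble and at 11.5 and 6.49 CPM with STAT6 siRNA, lower in both STAT6 siRNA libraries than in either scramble library.

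Of the 7 listed members, 4 (SAA4, HPX, CRP and ORM1) had a sequence in the RefSeq promoter set used (GRCh38.p14), and these 4 are shown. SAA4 and HPX had the largest fitted fold changes in the knockout comparison, CRP is the classical inflammatory marker and ORM1 was not higher in that comparison. Each sequence starts 250 bases before the RefSeq start and ends before the deposited transcript begins, on the strand of the gene. Capitals mark matches, on either strand, to TTNNGNAA (C/EBP type) and CTGGGA (the core of the interleukin-6 response element).
SAA4: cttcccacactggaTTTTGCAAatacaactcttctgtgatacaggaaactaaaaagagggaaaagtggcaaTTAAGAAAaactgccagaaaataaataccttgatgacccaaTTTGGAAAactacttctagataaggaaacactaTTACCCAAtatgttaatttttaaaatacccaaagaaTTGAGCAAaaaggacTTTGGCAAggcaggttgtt
HPX: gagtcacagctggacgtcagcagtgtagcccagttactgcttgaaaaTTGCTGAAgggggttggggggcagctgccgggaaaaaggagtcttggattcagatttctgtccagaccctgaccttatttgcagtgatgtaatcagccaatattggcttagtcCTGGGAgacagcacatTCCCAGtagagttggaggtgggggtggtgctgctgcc
CRP: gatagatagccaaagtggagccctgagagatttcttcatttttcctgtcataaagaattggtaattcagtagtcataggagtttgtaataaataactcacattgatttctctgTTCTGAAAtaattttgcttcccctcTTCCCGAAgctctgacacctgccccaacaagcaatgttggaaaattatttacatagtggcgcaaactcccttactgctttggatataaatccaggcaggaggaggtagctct
ORM1: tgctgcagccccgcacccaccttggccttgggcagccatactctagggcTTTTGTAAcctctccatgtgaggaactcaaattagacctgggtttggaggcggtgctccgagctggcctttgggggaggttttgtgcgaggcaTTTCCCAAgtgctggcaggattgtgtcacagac
SAA4 is on the minus strand of chromosome 11 (chr11:18236838-18237052), HPX on the minus strand of chromosome 11 (chr11:6441025-6441237), CRP on the minus strand of chromosome 1 (chr1:159714590-159714839) and ORM1 on the plus strand of chromosome 9 (chr9:114322848-114323022). The SAA4 sequence held 6 matches to TTNNGNAA, CRP and ORM1 held 2 each and HPX held 1. At least 1 such match occurred in 36.8% of the 35116 RefSeq promoter windows of 300 bases, at least 2 in 12.9% and at least 6 in 0.0712%. These shares are over all windows and were not matched for base composition, which alters how often such letters occur. HPX held 2 copies of CTGGGA upstream of its start and 1 more just after it, and a window with at least 1 copy was found in 33.3% of promoters and one with at least 3 in 1.25%. No 2 of these matches shared a base. The spacing TTCNNNGAA (STAT3 type, 7.66% of promoters), GGG and TTTCC with 2 bases between them (NF-kB, 1.91%), AACAAAG (SOX, 5.20%) and AACAAT (a shorter SOX form, 10.1%) matched in none of the 4 windows on either strand. TTC and GAA with 4 bases between them, the wider spacing of STAT6 type, was present in 6.44% of promoters and matched 1 time, 35 bases after the start of CRP. These matches are descriptions of letters and not of binding.

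SAA4, the constitutive serum amyloid A of high-density lipoprotein, gave 4 and 1 expected counts in Hep3B and 137 and 79.0 in the knockout-labelled libraries. It gave 10.0 and 10.4 counts with scramble siRNA and 17.0 and 66.0 with STAT6 siRNA. Scaled to depth these were 0.207 and 0.0495 CPM (Hep3B), 4.54 and 3.91 CPM (knockout-labelled), 0.615 and 0.499 CPM (scramble) and 1.45 and 2.95 CPM (STAT6 siRNA). The 4 conditions did not overlap, and their order was Hep3B, scramble, STAT6 siRNA and then the knockout-labelled libraries. SAA4 lies at chr11:18231355-18236837 (hg38) and shares 5471 bases, on the same strand, with the readthrough gene SAA2-SAA4, which was in neither table, so reads of the readthrough transcript could count as SAA4.

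HPX, hemopexin, carries free haem in plasma to the liver and was a far more abundant transcript (chr11:6431038-6441024, hg38). Its expected counts were 48 and 72 in Hep3B, 2532 and 505 in the knockout-labelled libraries, 364 and 212 with scramble siRNA and 537 and 449 with STAT6 siRNA. In CPM this was 2.48 and 3.56, then 83.9 and 25.0, then 22.4 and 10.2, and then 45.8 and 20.1. The knockout-labelled pair was above the Hep3B pair, as was every library of the siRNA experiment. Scramble and STAT6 siRNA overlapped because library 1 was higher than library 2 in both. The knockout-labelled pair also overlapped the STAT6 siRNA pair, its library 2 being below STAT6 siRNA library 1. Condition means ran in the same order as for SAA4, at 3.02 ± 0.762 CPM in Hep3B, 16.3 ± 8.65 CPM with scramble, 33.0 ± 18.2 CPM with STAT6 siRNA and 54.4 ± 41.7 CPM in the knockout-labelled libraries (SD, n = 2 each).

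HP, haptoglobin, captures free haemoglobin (chr16:72054592-72061056, hg38). It was near the detection limit in Hep3B, with 3 and 1 expected counts, against 80.9 and 22.6 in the knockout-labelled libraries, 14.0 and 3.50 with scramble and 19.6 and 23.5 with STAT6 siRNA. These correspond to 0.155 and 0.0495 CPM, 2.68 and 1.12 CPM, 0.864 and 0.168 CPM, and 1.67 and 1.05 CPM. Both pairs of treated libraries lay above their own controls, although the scramble libraries spread widely. HPR, the near-identical haptoglobin-related gene, had 1 and 0 counts in Hep3B, 19.1 and 5.40 in the knockout-labelled libraries, 7.06 and 7.01 with scramble and 7 and 7 with STAT6 siRNA, and the division of reads between HP and HPR is uncertain. HP also lies under TXNL4B on the opposite strand over 6464 bases, and whether strand was used in counting is not given in the sources used here.

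CRP, the pentraxin measured in the clinic as a marker of inflammation, was low in all 8 libraries (chr1:159712289-159714589, hg38). It had 14 and 3 expected counts in Hep3B and 51 and 43 in the knockout-labelled libraries, or 0.725 and 0.148 CPM against 1.69 and 2.13 CPM. Scramble libraries had 5 and 11 counts (0.308 and 0.528 CPM) and STAT6 siRNA libraries 11 and 17 (0.939 and 0.761 CPM). CRP was thus highest in the knockout-labelled pair, and the Hep3B pair spanned the scramble values.

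ORM1 and ORM2, the alpha-1-acid glycoproteins, bind basic drugs in plasma and are neighbouring near-identical genes (chr9:114323023-114326479 and chr9:114329789-114333256, hg38). ORM1 was at 68.2 and 103 CPM in Hep3B, 45.2 and 71.7 CPM in the knockout-labelled libraries, 232 and 154 CPM with scramble and 335 and 219 CPM with STAT6 siRNA. ORM2 was at 11.9 and 12.3 CPM in Hep3B, 22.1 and 34.5 CPM in the knockout-labelled libraries, 67.7 and 45.4 CPM with scramble and 121 and 65.1 CPM with STAT6 siRNA. The genes of the pair thus parted in the knockout-labelled libraries, where ORM2 was above both Hep3B libraries and ORM1 overlapped them.

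Reads of these copies may be divided unevenly, which would alter the share of each gene as well as its level. With both genes summed, the log2 fold change in the knockout comparison was -0.11. The share of ORM2 is given as a description and does not remove this uncertainty. ORM2 took 14.9% and 10.6% of the ORM1 plus ORM2 counts in Hep3B, 32.8% and 32.5% in the knockout-labelled libraries, 22.6% and 22.7% with scramble, and 26.5% and 22.9% with STAT6 siRNA. The share was lowest in Hep3B and highest in the knockout-labelled libraries, and within every condition except Hep3B and STAT6 siRNA its 2 values were nearly the same.

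**Figure D1:**
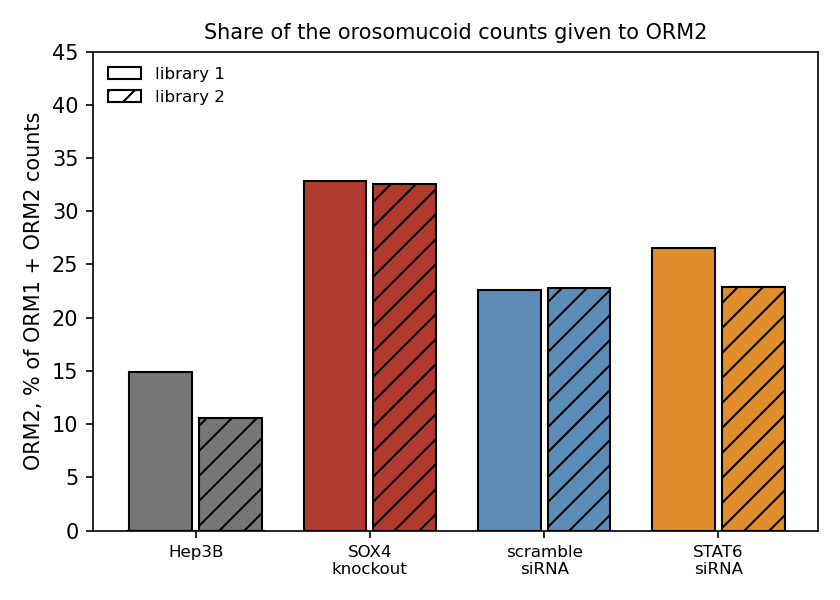
ORM2 as a percentage of the ORM1 plus ORM2 expected counts (vertical axis, from 0) in each of the 8 libraries, plain bars for library 1 and hatched bars for library 2. The bars of the libraries labelled SOX4 knockout reach 32.8% and 32.5%, above every other library, and those of Hep3B stay at 14.9% and 10.6%.

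FGL1, a hepatocyte-secreted ligand of the lymphocyte receptor LAG3 encoded on chromosome 8, was the member that did not separate the conditions. Its level was 114 and 54.0 CPM in Hep3B, 102 and 60.7 CPM in the knockout-labelled libraries, 51.2 and 147 CPM with scramble and 36.8 and 158 CPM with STAT6 siRNA. The 4 pairs overlapped, and the largest contrast was between library 1 and library 2 of the siRNA experiment. Its 4 RefSeq transcripts have a GC content of 40.2% to 42.3%, against a median of 48.5% over 13529 genes.

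**Figure D2:**
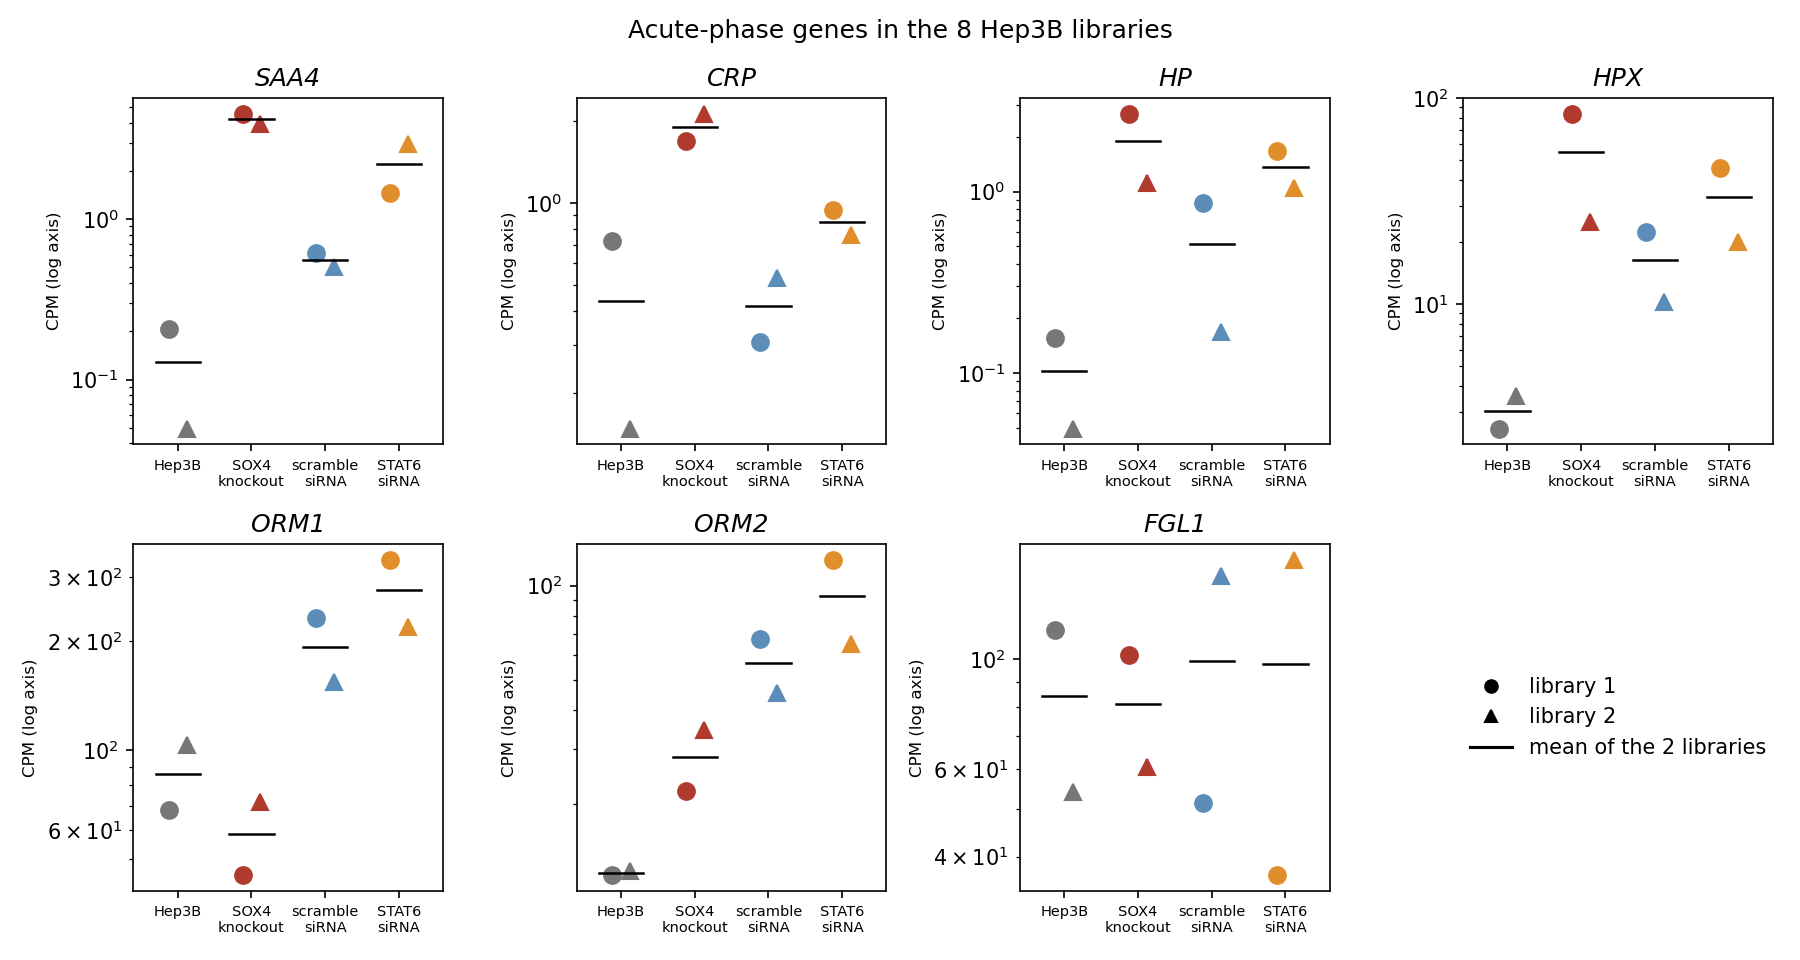
CPM (vertical log axes, one panel per gene) of the 7 listed members in the 4 conditions, with circles for library 1, triangles for library 2 and a line at the mean of the 2 libraries. SAA4 and HPX have their lowest values in Hep3B and their highest means in the libraries labelled SOX4 knockout, while the mean of ORM1 is highest with STAT6 siRNA and FGL1 overlaps in all conditions.

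Per kilobase of transcript, which allows genes to be compared, ORM1 had the highest mean of the members in Hep3B at 107 ± 31.0 CPM per kb, followed by FGL1 at 65.4 ± 33.9, which overlapped it, ORM2 at 15.9 ± 0.326 and HPX at 1.83 ± 0.461 CPM per kb (SD, n = 2 each). CRP, SAA4 and HP followed at 0.217 ± 0.202, 0.176 ± 0.153 and 0.0840 ± 0.0614 CPM per kb and overlapped each other. In the knockout-labelled libraries HPX reached 32.9 ± 25.2 CPM per kb and overlapped ORM2 at 37.3 ± 11.6, and SAA4, at 5.81 ± 0.617, was above HP at 1.41 ± 0.735 and CRP at 0.947 ± 0.153 without overlap. With STAT6 siRNA ORM1 stood at 345 ± 102 CPM per kb and SAA4 at 3.03 ± 1.46, and with scramble at 241 ± 68.3 and 0.767 ± 0.113. HPX made up 0.782% and 1.14% of the summed CPM per kb of the members in Hep3B, and 22.7% and 7.40% in the knockout-labelled libraries.

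The first comparison set the libraries labelled as knockout of SOX4, a transcription factor, against wild-type Hep3B. SAA4, HPX and HP were the 3 members called higher in the knockout-labelled libraries, and none was called lower, at an adjusted p below 0.05 in edgeR's quasi-likelihood test over 14415 genes, of which 5.89% were called (4.5% higher and 1.39% lower). SAA4 was higher by 5.05 on the log2 scale (standard error 0.85), HPX by 4.24 (0.66) and HP by 4.23 (0.96). From the pooled counts, SAA4 was 33.9-fold higher (95% exact counting interval 14.3 to 105), HPX 19.8-fold (16.5 to 24.0) and HP 20.4-fold (7.73 to 76.2), intervals that cover counting error only. CRP had a log2 fold change of 2.17 (0.85) and ORM2 of 1.28 (0.39), and both had the knockout-labelled pair above the Hep3B pair without being called. ORM1 was at -0.49 (0.39) and FGL1 at 0.01 (0.47), both with overlapping pairs, and the sign of FGL1 turned under other scalings. Without overlap, 5 of the 7 members were higher in the knockout-labelled libraries, as were 27.7% of the genes in both tables, and the median log2 fold change was 2.17 over the members and 0.01 over all genes tested. Since the list was made from this contrast, these counts describe the members and support nothing further.

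Leaving out libraries altered the calls, in fits where a lone library is assumed to vary like the remaining pair. Without knockout-labelled library 1, 73 genes and 0 members were called, and without library 2, 21 genes and 1 member (HPX). Leaving out Hep3B library 1 gave 2298 genes and 4 members, CRP being added, and leaving out Hep3B library 2 gave 1322 genes and 2 members, HP being lost. Over these the log2 fold change of SAA4 ranged from 4.35 to 6.29, that of HPX from 3.10 to 4.84 and that of HP from 3.45 to 5.16. CRP ranged from 1.42 without Hep3B library 2 to 3.65 without Hep3B library 1, and ORM2 from 0.92 to 1.56. SAA4 and HP passed the filter on low counts only through the knockout-labelled libraries. CRP, with 14 and 3 expected counts in Hep3B, did not pass it through the Hep3B pair alone.

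The second comparison asked how the members stood after knockdown of STAT6, the interleukin-4 responsive STAT. None of the 7 was called in the edgeR test, which had no block, and none of the 13554 genes was (0%). Of these genes 14 (0.103%) had an unadjusted p below 0.05, and DESeq2 also called 0. STAT6, the target of the siRNA, was itself not called, at a log2 fold change of -2.22 (standard error 0.72). The absence of a call therefore does not show the absence of a change in this comparison. A fit with the library number as a block called 62 genes, SAA4 and HPX among them, as given under the dependence on the processing. The log2 fold change was 1.98 for SAA4 (standard error 0.83), 1.40 for HP (0.93), 0.95 for HPX (0.74) and 0.94 for CRP (0.84). In this fit without a block, these sizes and their order depended on which library was left out. Leaving out a library leaves the other library of its number without a partner. The ranges below therefore also hold the difference between the library numbers, which the differences within each number do not. SAA4 ranged from 1.30 without STAT6 siRNA library 2 to 2.42 without STAT6 siRNA library 1, and HP from 0.60 without scramble library 2 to 3.17 without scramble library 1. HPX ranged from 0.30 without STAT6 siRNA library 1 to 1.70 without scramble library 1, being 0.49 without scramble library 2 and 1.39 without STAT6 siRNA library 2, and CRP from 0.67 to 1.39, without scramble library 1 and 2 respectively. ORM2 was at 0.65 (0.61) with a range of 0.20 to 1.04, ORM1 at 0.46 (0.56) with a range of 0.18 to 0.85, and FGL1 at -0.04 (0.75) with either sign, when each library in turn was left out. For SAA4, HP and CRP both STAT6 siRNA libraries were above both scramble libraries, 3 of 7 members against 3.28% of all genes. HP had 14.0 and 3.50 expected counts with scramble and CRP had 5 and 11, so this count only describes members chosen by fold change. The median log2 fold change was 0.94 over the members and -0.03 over all genes.

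The differences of the siRNA experiment were also taken within each library number. Within number 1 and number 2, respectively, log2 CPM differed between STAT6 siRNA and scramble by 1.12 and 2.40 for SAA4, 0.91 and 2.21 for HP, and 1.03 and 0.97 for HPX. CRP differed by 1.35 and 0.46, ORM2 by 0.84 and 0.52, ORM1 by 0.53 and 0.51, and FGL1 by -0.48 and 0.11. In 6 of the 7 members STAT6 siRNA was higher within both numbers, as it was in 32.8% of all genes. The HPX and ORM1 differences were almost the same in both numbers although their levels were higher in library 1 of each pair.

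GC content moved with these libraries. Across 13529 genes, which are not independent replicates, Spearman's rho between the GC content of a transcript and the log2 ratio of library 2 to library 1 was -0.73 with scramble and -0.79 with STAT6 siRNA, against -0.09 in Hep3B and 0.28 in the knockout-labelled libraries. With the difference of STAT6 siRNA from scramble it was 0.53 in number 1 and 0.30 in number 2, with that of scramble from Hep3B 0.66 and 0.39, and with that of the knockout-labelled libraries from Hep3B 0.12 and 0.33. The HPX transcript has a GC content of 55.4%, ORM1 53.0%, ORM2 53.2%, CRP 49.1% and SAA4 48.4%. The part of GC content in the member differences was not tested.

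**Figure D3:**
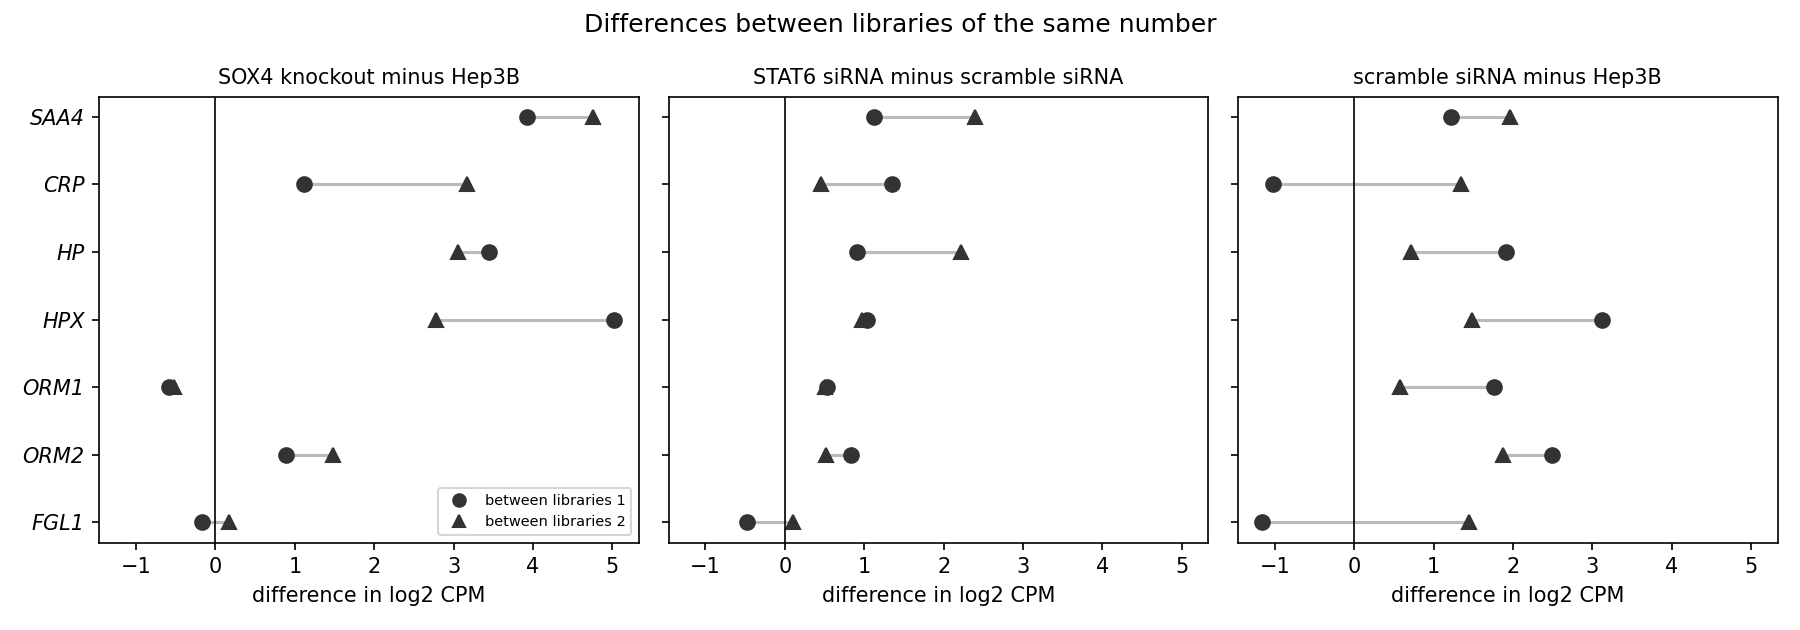
Difference in log2 CPM between libraries of the same number (horizontal axis) for each of the 7 members, with circles for libraries 1 and triangles for libraries 2, in the 3 pairs of conditions. With STAT6 siRNA 6 of 7 members lie to the right of 0 in both numbers, SAA4 at 1.12 and 2.40, whereas FGL1 lies on both sides, and ORM1 alone lies to the left of 0 in both numbers of the knockout comparison.

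Scramble siRNA and untransfected Hep3B were set side by side because the members differed between the controls themselves. Transfection and the separate experiment and table cannot be told apart in this comparison, and it shares its libraries with the other comparisons, so its values are only listed. HPX was higher with scramble by 2.43 on the log2 scale (standard error 0.72), ORM2 by 2.22 (0.56), HP by 2.20 (1.11), SAA4 by 2.05 (0.91) and ORM1 by 1.17 (0.52). HP was summed over 3 transcripts in the first table and 2 in the second, and the transcript listed only in the first held part of the 3 and 1 counts of HP in Hep3B, so its value here compares unlike sets of transcripts. HPX ranged from 1.75 without scramble library 1 to 2.88 without scramble library 2. HP was at 0.48 without scramble library 1 and at 3.15 without Hep3B library 1, and SAA4 at 1.37 without Hep3B library 2 and at 3.31 without Hep3B library 1. CRP was at -0.04 (0.88) and FGL1 at 0.24 (0.70), each with either sign when single libraries were left out. Of these 7, 0 were called, 1 of 14313 genes (0.00699%) was called, and 19.6% had an unadjusted p below 0.05. DESeq2 called 686 genes and 2 members, ORM2 and HPX. The 5 members named first were above both Hep3B libraries in both scramble libraries, as were 27.6% of genes. For ORM1 and ORM2 the levels with scramble exceeded those of the knockout-labelled libraries, and for SAA4 and HPX they fell between Hep3B and the knockout-labelled libraries.

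Other positive acute-phase proteins were followed as a list of 16 genes, itself written with earlier results known, of which 14 were tested in the knockout comparison. In that list 5 were called higher and 0 lower (edgeR), against 4.5% higher and 1.39% lower of all genes tested, and the median log2 fold change was 2.16. SERPING1, the C1 inhibitor, was at 86.4 and 86.0 CPM against 2.17 and 2.57 CPM in Hep3B, which is higher by a log2 value of 5.24 with an SE of 0.40 (adjusted p = 0.00384). CFB, complement factor B, was at 231 and 171 against 11.3 and 6.78 CPM (4.53, 0.45, adjusted p = 0.00875). FGB, the fibrinogen beta chain, was at 141 and 50.1 against 18.9 and 15.9 CPM (2.53, 0.54, adjusted p = 0.0413). HAMP, the iron hormone hepcidin, was at 2.52 and 13.4 against 0.362 and 0.396 CPM (4.41, 0.92, adjusted p = 0.0399). ITIH3, an inter-alpha-trypsin inhibitor chain, was at 3.31 and 1.93 CPM in the knockout-labelled libraries and at 0 and 0.0495 CPM in Hep3B, which is 1 count in all, so no fold is given. ITIH3 and HAMP passed the filter on low counts only through the knockout-labelled libraries, and with at least 10 counts in every library 3 genes of the list were called. C3, the central complement protein (1309 and 6420 against 3137 and 323 CPM), and LCN2, an iron-siderophore binder (0.397 and 16.1 against 14.5 and 0.0495 CPM), overlapped between the conditions.

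Negative acute-phase proteins, which inflammation lowers in plasma, did not go the other way in the knockout-labelled libraries. Of 8 tested, 3 were called higher and 0 lower (of all genes, 4.5% and 1.39%), with a median log2 fold change of 1.53. TTR, the thyroxine and retinol-binding protein carrier transthyretin, was at 216 and 89.1 against 19.0 and 17.3 CPM (3.14, standard error 0.50, adjusted p = 0.0223 by edgeR). APOA1, the main protein of high-density lipoprotein, was at 670 and 275 against 92.0 and 95.1 CPM (2.40, 0.51, adjusted p = 0.0413), and SERPINA6, the cortisol carrier, at 176 and 175 against 41.0 and 9.20 CPM (2.86, 0.66, adjusted p = 0.0494). ALB itself was at 24881 and 12268 against 6802 and 6402 CPM and was not called (1.56, 0.72, adjusted p = 0.22). Without knockout-labelled library 1 or library 2, 0 of the negative list and 3 or 2 of the positive list were called, and without Hep3B library 1 these counts were 5 and 11.

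With STAT6 siRNA 0 of 12 positive and 0 of 9 negative acute-phase genes were called, and none had an unadjusted p below 0.05. All 12 positive ones had a log2 fold change above 0, as did 46.3% of all genes, with a median of 0.39, and 7 of the 9 negative ones did, with a median of 0.32. SERPINA1, alpha-1-antitrypsin and the positive gene with the highest mean CPM in the scramble libraries, was at 7274 and 3204 CPM against 3722 and 2329 CPM with scramble (0.73, standard error 0.61). C3 was at 2599 and 966 against 1510 and 788 CPM and FGA, the fibrinogen alpha chain, at 156 and 442 against 147 and 334 CPM. TF, transferrin, was at 2552 and 2398 against 2021 and 1813 CPM, ALB at 5917 and 13047 against 8169 and 10331 CPM, and AHSG, fetuin-A, at 2108 and 1071 against 2398 and 1495 CPM. Between scramble and Hep3B edgeR called 0 of these genes and DESeq2 called 2 positive and 1 negative ones, with medians of 0.49 over 12 positive and 1.41 over 9 negative ones.

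**Figure D4:**
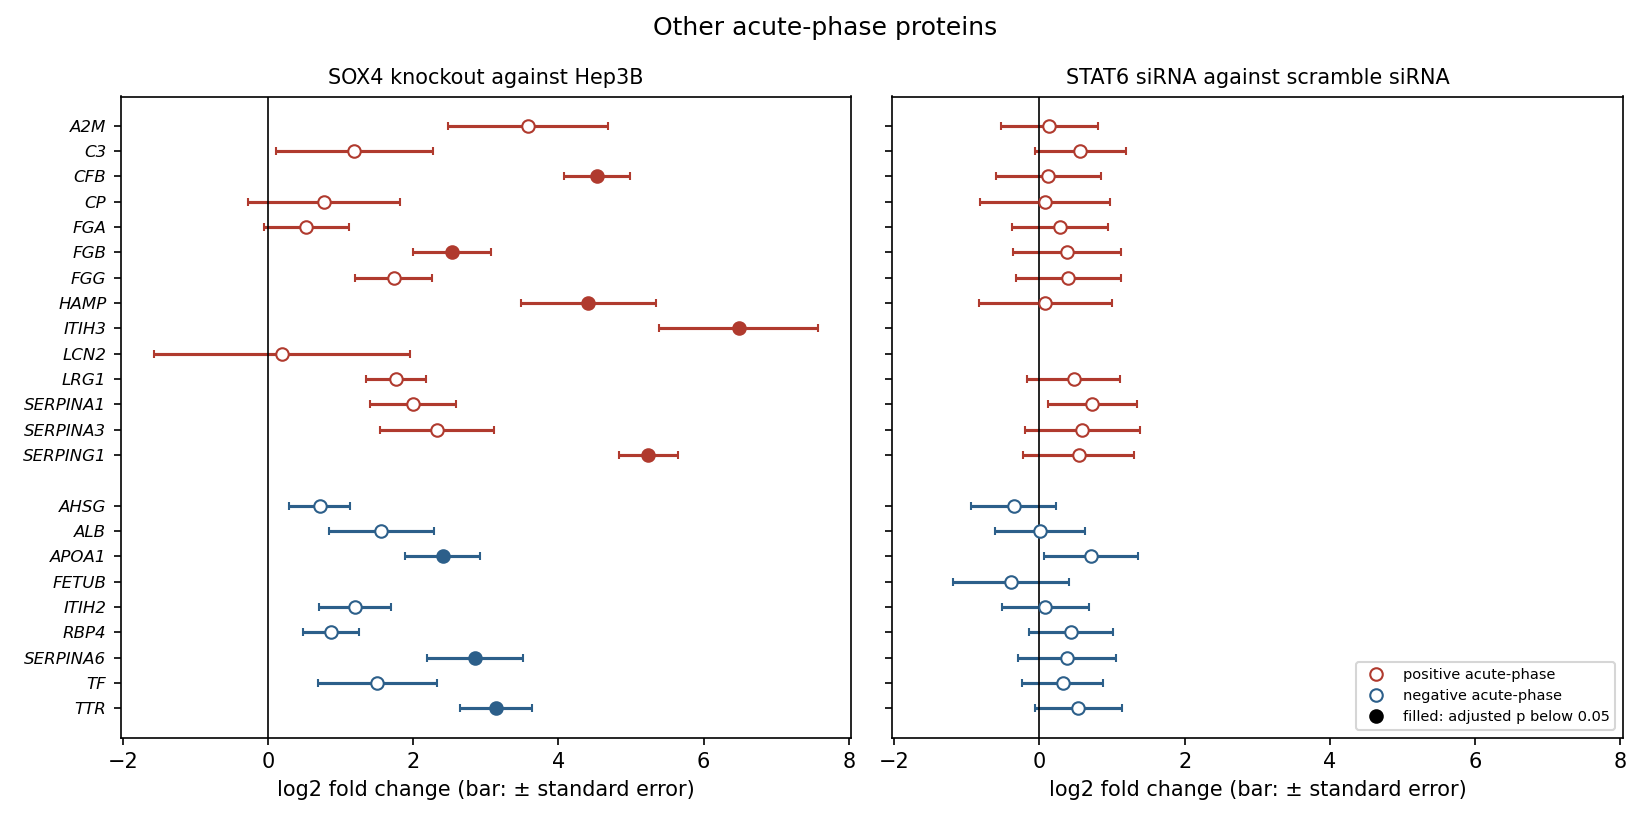
Log2 fold change (horizontal axis, bar: standard error) of the tested positive (red) and negative (blue) acute-phase genes in both comparisons, filled where the edgeR adjusted p was below 0.05. In the knockout comparison all 22 points lie above 0 and 8 are filled, and with STAT6 siRNA none is filled. ITIH3 rests on 1 count in Hep3B, so the size of its fold is not given in the text.

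Receptors and signalling genes of the acute-phase response were called about as often as genes in general. Of 18 such genes tested in the knockout comparison 1 was higher and 0 lower (of all genes, 5.89% were called), with a median log2 fold change of 0.51. That gene was IL1R1, the interleukin-1 receptor, at 65.3 and 31.2 CPM against 9.58 and 5.44 CPM in Hep3B (2.75, standard error 0.52, adjusted p = 0.0319 by edgeR). This call needed both knockout-labelled libraries. IL6ST, which encodes gp130, was at 225 and 129 against 219 and 158 CPM, IL1RAP at 511 and 357 against 276 and 27.9 CPM and JAK1 at 128 and 200 against 124 and 115 CPM. STAT3, the mediator of interleukin-6 signals, was at 132 and 175 against 119 and 102 CPM and showed almost the same level with STAT6 siRNA (135 and 147 CPM) and scramble (132 and 139 CPM). IL6ST differed more between the controls, with 11.1 and 62.0 CPM after scramble siRNA, and was not called there by edgeR, while DESeq2 called 1 gene of this list. With STAT6 siRNA 0 of 17 were called, median -0.06. IRAK1, a kinase downstream of the interleukin-1 receptor, was at 647 and 240 against 368 and 221 CPM there, and TYK2 at 263 and 113 against 174 and 105 CPM.

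None of 12 transcription factors of acute-phase promoters was called by edgeR in any comparison. Of all genes 5.89% (knockout), 0% (STAT6 siRNA) and 0.00699% (scramble against Hep3B) were called. DESeq2 called 1 of these factors between scramble and Hep3B. Their median log2 fold changes were 0.45 (knockout), 0.12 (STAT6 siRNA) and 0.16 (scramble against Hep3B). HNF4A, a master factor of hepatocytes, was at 344 and 272 CPM in the knockout-labelled libraries and 177 and 158 CPM in Hep3B. CEBPB, an inflammatory C/EBP factor, was at 35.0 and 80.6 against 146 and 125 CPM, below both Hep3B libraries but with an adjusted p of 0.146 (edgeR). CEBPA was at 244 and 176 against 229 and 96.0 CPM, and reached 1075 and 548 CPM with scramble and 1832 and 595 CPM with STAT6 siRNA. RELA, a subunit of NF-kB, was at 247 and 117 CPM with STAT6 siRNA against 170 and 130 CPM with scramble.

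Among receptors and partners of the members, 7 were tested in the knockout comparison, 0 were called higher and 1 was called lower (of all genes, 1.39% lower). That gene was HMOX1, the haem oxygenase that breaks down the haem hemopexin delivers, at 10.9 and 14.7 CPM against 35.8 and 172 CPM (-2.95, standard error 0.69, adjusted p = 0.0498 by edgeR). The call was lost without the filter on low counts, and it also needed both knockout-labelled libraries. LRP1, the receptor of the haem-hemopexin complex, was at 242 and 183 against 146 and 120 CPM (0.74, 0.36, not called), SCARB1 at 89.3 and 103 against 132 and 50.6 CPM and BLVRB, a biliverdin reductase, at 54.3 and 75.6 against 30.0 and 78.8 CPM. With STAT6 siRNA 0 of 7 were called, LRP1 being at 455 and 193 against 261 and 201 CPM. In related gene families edgeR called 0 of 3 tested in the knockout comparison (of all genes, 5.89%), and DESeq2 called 1 (of all genes, 2160). APCS, the pentraxin related to CRP, was at 5.33 and 2.32 CPM against 0.518 and 0 CPM, AMBP at 1648 and 1103 against 846 and 800 CPM and PLTP at 3.52 and 2.40 against 0.496 and 1.61 CPM.

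The genes most like SAA4 and HPX were sought among 10982 other genes by Pearson's r of log2 CPM over the 8 libraries, given as a description since the points share libraries, depth and scaling. Nearest to SAA4 were PKLR, liver pyruvate kinase (r = 0.96), CEMIP (0.95), ARPIN (0.95), C1RL (0.94) and SLC5A9 (0.94). PKLR was at 1.01 and 0.462 CPM in Hep3B, 12.9 and 14.0 in the knockout-labelled libraries, 3.67 and 3.40 with scramble and 6.31 and 5.41 with STAT6 siRNA, the same order of conditions as SAA4. Nearest to HPX were NEU4, a sialidase (r = 0.995), APOC3, an inhibitor of lipoprotein lipase (0.98), AGT, angiotensinogen and itself a liver secretory protein (0.98), C1orf56 (0.98) and TTR (0.98). NEU4 was at 3.26 and 6.07 CPM in Hep3B, 92.6 and 27.7 in the knockout-labelled libraries, 28.7 and 14.0 with scramble and 62.0 and 23.7 with STAT6 siRNA, with library 1 above library 2 in the last 3 conditions, as for HPX.

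Markers of other cell types differed between the same libraries. Of 5 fibroblast markers 3 were in both tables (COL1A2 and DCN were not), and their summed level was 4.04 and 6.98 CPM in Hep3B, 88.5 and 69.7 in the knockout-labelled libraries, 8.86 and 7.53 with scramble and 18.1 and 9.89 with STAT6 siRNA. LUM, lumican, made up most of this in the knockout-labelled libraries, at 74.8 and 48.7 CPM against 0.569 and 0.693 CPM in Hep3B. Of 5 leukocyte markers CD68 and LYZ were in both tables, while PTPRC, CD3E and MS4A1 were not, and the sum was 81.6 and 32.0 CPM in Hep3B, 163 and 392 in the knockout-labelled libraries, 89.1 and 67.7 with scramble and 108 and 67.8 with STAT6 siRNA. LYZ alone was at 42.4 and 5.69 CPM in Hep3B and at 98.9 and 309 CPM in the knockout-labelled libraries. Of 4 endothelial markers PECAM1 alone was in both tables, below 1 CPM everywhere. All 4 cholangiocyte markers were present, led by EPCAM in Hep3B and by KRT19 on average over the libraries, with sums of 881 and 645 CPM in Hep3B, 911 and 1086 in the knockout-labelled libraries, 1373 and 1099 with scramble and 1961 and 1208 with STAT6 siRNA. All 8 libraries were labelled as the Hep3B line, so a marker named for another cell type does not show that such cells were present. In bulk RNA, more cells that express a gene and more RNA per cell cannot be told apart. The part of these markers in the member differences was not tested.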

How the data were processed

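The authors deposited expected counts, which are unnormalized read estimates for each RefSeq transcript, in 2 tables, 1 for the Hep3B and SOX4 knockout libraries and 1 for the siRNA libraries. Per the labels, the submitters' processing notes name STAR, Partek and build hg38, and the quantifier's settings and versions are not given in the sources used here. Such estimates divide reads between near-identical transcripts. The tables held 33253 and 30650 transcripts, and 0 sample columns were left without a library. A spreadsheet program had made dates of 19 gene names per table. The members and gene lists were chosen with earlier results of these data known.

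Counts were summed by gene and rounded. Each table was fitted separately with edgeR 4.0.16 under R 4.3.3 (filterByExpr, TMM, glmQLFit, glmQLFTest) without a block, and genes were called at a Benjamini-Hochberg adjusted p below 0.05. The comparison of scramble siRNA with Hep3B came from one fit of all 8 libraries over genes in both tables. Library totals ran from 16266282 to 25353113 expected counts. CPM per kb used lengths of the matching transcripts in GENCODE release 29, and log2 CPM a prior count of 2. Intervals of pooled folds are 95% exact (Clopper-Pearson) intervals and cover counting error only. The steps were tested on simulated data. Named were all members, from each list every gene called, up to 6, and where fewer than 3 were called the 3 with the largest mean CPM in the control, as well as SOX4, STAT6 and STAT3, and the 5 genes most like SAA4 and HPX with a mean of at least 100 counts a library. C3, LCN2 and ALB in the knockout comparison, and HPR, were named outside this rule, after their values were seen. GENCODE and RefSeq GRCh38.p14 were used for overlaps and promoters. The alternatives tried were DESeq2 1.42.0, upper-quartile or median-of-ratios factors, other filters, near-identical genes summed, the library number as a block, one fit of all libraries and leaving out each library. The result of 1 gene is withheld and not reported here.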

Additional observations from a re-analysis of the deposited data

How the results depend on the processing

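With 2 libraries a condition and no stated separate cultures, the calls rest on few samples, and SAA4, HP and CRP rest on few counts in Hep3B. In the knockout comparison 849 genes were called, against 2160 with DESeq2, 518 with at least 10 counts in every library, 438 in one fit of all 8 libraries and 21 to 2298 when single libraries were left out. Of the members 1 was called with at least 10 counts, a filter that removes SAA4, HP and CRP, and 0 to 4 when libraries were left out. For the positive acute-phase list the counts were 9 (DESeq2), 3 (at least 10 counts), 3 (one fit) and 2 to 11 (libraries left out). For the negative list they were 1 (one fit) and 0 to 5 (libraries left out), for the cytokine list 2 (DESeq2) and 0 to 3, for receptors and partners 3 (DESeq2), 0 (no filter) and 0 to 2, and for related genes 1 (DESeq2) and 0 to 1. Without the filter HP was no longer called, and under DESeq2 ORM2 was also called. The log2 fold change of FGL1 was -0.0284 with median-of-ratios factors, -0.0284 with DESeq2, -0.0489 in one fit and -0.45 to 0.61 with libraries left out. In the knockout comparison with near-identical genes summed, ORM1 (then including ORM2) was at -0.11 instead of -0.49. HP was at 4.22 instead of 4.23 there, 0.94 instead of 1.40 after STAT6 siRNA, and 2.77 instead of 2.20 between scramble and Hep3B.

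After STAT6 siRNA 0 genes were called when any library was left out, and FGL1 ranged from -1.54 to 0.92. The libraries share numbers in the labels, which do not say what a number marks. Deviations of same-numbered libraries from their condition means correlated at 0.83 in the siRNA table and -0.07 in the knockout table. With the library number as a block, 62 genes and 2 members (SAA4 and HPX) were called after STAT6 siRNA, as was 1 of the receptors and partners. In the knockout comparison the block gave 982 genes, the same number of members, 3, and 1 of the related genes.

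For scramble siRNA against Hep3B, 0 genes were called with upper-quartile factors, 0 with at least 10 counts and 0 with the block, where CRP was at 0.0434 on the log2 scale. DESeq2 called 686 genes, 2 members, 2 of the positive and 1 of the negative acute-phase list, 1 of the cytokine list and 1 transcription factor. With libraries left out, 0 to 1856 genes and 0 to 2 members were called, 0 to 1 of the positive and 0 to 2 of the negative list, 0 to 2 of the cytokine list and 0 to 1 transcription factor, while CRP ranged from -0.77 to 1.47 and FGL1 from -0.72 to 0.88. The cause of these changes was not tested.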
